A study of Mus musculus with 6 samples.

Results

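The genes described here are 10 targets of the hypoxia-inducible factors (HIFs) that lie outside glycolysis and blood vessel growth. They are Car9, Car12, Bnip3, Bnip3l, Ankrd37, Ndrg1, P4ha1, P4ha2, Kdm3a and Ddit4, chosen by name as textbook targets with earlier results of these data known, and they are 10 of the 43043 genes in the tables. All 10 passed the filter on low counts that left 14419 genes for testing. RNA was sequenced from D4M-3A cells, a mouse melanoma line, in 3 control samples (Ctrl), transduced with an empty CRISPR-Cas9 lentiviral construct, and in 3 samples with a CRISPR-Cas9 knockout of Nfkbiz (Nfkbiz KO), which encodes the transcriptional co-regulator IκBζ. Both groups went through lentiviral transduction and puromycin selection, no single clone is named, and the labels give neither an oxygen level nor a time after transduction. The comparison asks which transcripts differ when IκBζ is depleted.

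HIFs are pairs of an oxygen-regulated alpha subunit, HIF-1α or HIF-2α, and the stable partner ARNT. With oxygen present, prolyl hydroxylases (EGLN enzymes) mark the alpha subunit, VHL binds it, and it is degraded, so that HIF activity is low. When oxygen falls, or when other signals raise the alpha subunit, the pair binds hypoxia response elements in DNA and its targets adapt metabolism, pH, mitochondria, matrix and growth.

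The 6 samples held between 32219900 and 44927203 gene reads, and all 6 were tested together. The targeted gene, Nfkbiz, measured 69.1, 75.2 and 63.4 TPM (a transcript level corrected for length and depth) in Ctrl against 34.8, 34.7 and 35.1 TPM in Nfkbiz KO, with a log2 fold change of -0.98 (SE 0.056). The knockout samples therefore kept Nfkbiz transcripts, all of them below every control sample. The paper reports efficient depletion of IκBζ protein by immunoblot, and protein was not measured here. Of 9 melanocyte lineage markers 7, among them Sox10, Tyr, Dct and Mlana, were at or below 3 reads in every sample, while Axl, a marker of dedifferentiated melanoma, reached 768 TPM ± 72.2 (SD, n = 3) in Ctrl. Summed over the 5 dedifferentiated markers the level was 730 to 878 TPM in Ctrl and 926 to 941 TPM in Nfkbiz KO, although 3 of the 5 (Egfr, Wnt5a and Nt5e) were lower. Most of this sum was Axl, which was not called (log2 fold change 0.14, adjusted p = 0.089), and Ngfr had at most 6 reads. The summed level of fibroblast marker genes was 389 to 446 TPM across control samples and 292 to 322 TPM after knockout. Col1a1 made up most of it and fell from a mean of 367 to 263 TPM, and Dcn was lower as well. Pdgfra, from the same list, was not called, with means of 36.7 TPM before and 39.5 TPM after knockout (log2 fold change 0.002, adjusted p = 0.98). Lum stayed at or below 3 reads, and Thy1 had at most 4. Summed endothelial markers stayed at or below 1.85 TPM, with Cdh5 higher in Nfkbiz KO (log2 fold change 1.34). Summed leukocyte markers stayed at or below 4.14 TPM and keratinocyte markers at or below 3.41 TPM. Their part in the results below was not tested, and in bulk RNA fewer cells of a type and less RNA per cell cannot be told apart.

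Of the 10 genes, 9 were lower in Nfkbiz KO and 0 were higher by the quasi-likelihood test of edgeR, called where the p adjusted by Benjamini-Hochberg did not exceed 0.05. Over all genes tested, 36.6% passed this threshold in either direction, 18.4% lower and 18.2% higher. The median log2 fold change of the 10 was -0.84, beside -0.02 over all genes tested. With the fold change set to 1.5 or more and the adjusted p to 0.1 or less, 7 of the 10 were lower, with 6.74% of all genes tested. With a fold change above 2 and a difference of means above 4 TPM, 4 were lower, namely Ddit4, Bnip3, P4ha2 and Ankrd37, with 1.03% of all genes tested. Bnip3 lay at this threshold, 2.00-fold lower in reads and -0.89 in log2 of the mean TPM, under the required fold. In depth-normalised reads (log2 CPM), every Nfkbiz KO sample lay below every Ctrl sample for the same 9 genes, and for 24.5% of all genes tested. Tested on log2(TPM + 1) with limma, 1327 genes were lower and 3004 higher in the whole series, against 2647 and 2627 in reads, and 8 of the 10 were still lower.

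The 10 genes spanned a wide range of levels in Ctrl, from P4ha1 at 230.5 TPM ± 12.03 (SD, n = 3) to Car12 at 1.03 TPM ± 0.139. Between them stood, in order, Ddit4, Bnip3, Bnip3l, P4ha2, Kdm3a, Ndrg1, Ankrd37 and Car9. Ddit4 and Bnip3 overlapped in the control samples, as did Car9 and Car12, and the other neighbours in this order were separated in each sample. Summed over the 10 genes the level was 784, 884 and 854 TPM in Ctrl and 525, 505 and 518 TPM in Nfkbiz KO, a fall of 38.6%. No control sample overlapped with a knockout sample in this sum, for which the exact two-sided permutation test gave p = 0.1, the smallest that 3 against 3 samples allow. The sum and the ratios of members given below were chosen after the values had been seen.

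**Figure D1:**
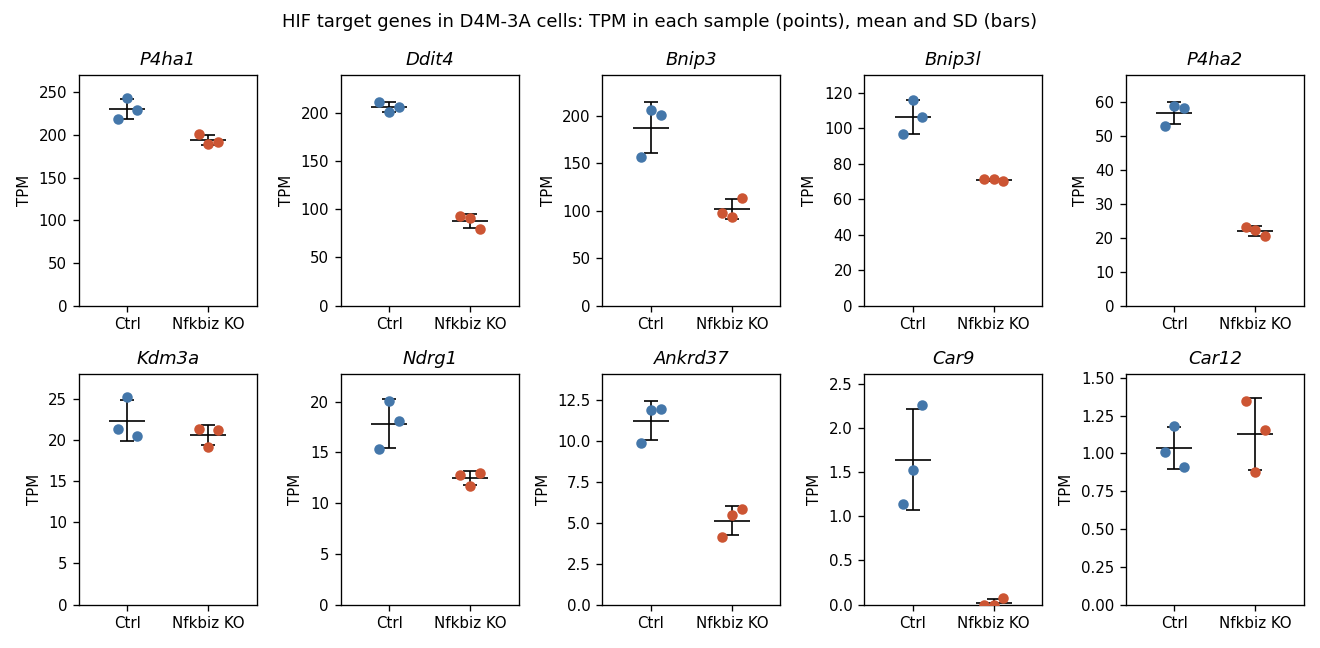
Level of each of the 10 HIF target genes in TPM (vertical axes start at 0 and differ between panels) in 3 Ctrl (blue) and 3 Nfkbiz KO (red) samples, with the mean and SD of each group. The groups are apart in 8 panels, overlap slightly in Kdm3a (20.5 to 25.2 against 19.2 to 21.3 TPM) and overlap fully in Car12.

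Promoter sequence was examined for the short core of the hypoxia response element, ACGTG on either strand. RefSeq promoter windows, from 250 bases before to 50 bases after an annotated start site in GRCm38.p6, were at hand for 8 of the 10 genes and not for Bnip3l or Ndrg1. The core was found in 6 of these 8, namely Car9, Bnip3, Ankrd37, P4ha1, P4ha2 and Ddit4. Among all 32851 windows of this length, 6447 (19.6%) held it. It was in none of the 3 windows of Kdm3a and not in that of Car12. With GCGTG counted as well, which 43.8% of all windows held, Kdm3a joined and Car12 did not. A match describes letters only and shows no binding. Because the genes were chosen as HIF targets, the share of them with the core says nothing about the knockout. That share also counts genes, Kdm3a with 3 windows, whereas the share over all promoters counts windows.

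The sites are shown so that the letters around each core can be compared. Each 30-base stretch is written 5′ to 3′ on the strand of its gene, with the core in capitals, as ACGTG or, where it lies on the other strand, as CACGT. In Bnip3 the capitals are the palindrome CACGTG, in which the core reads on both strands. The Car9 core is in the longer sequence further on.
Bnip3 (chr7:138909597-138909626, minus strand): gcgcacgcgccgCACGTGccacacgctccc
Ankrd37 (chr8:46000071-46000100, minus strand): cccagcagtACGTGcctagctcggctcgca
Ankrd37 (chr8:45999839-45999868, minus strand): cagtgtttgggtACGTGaggccgcagcggg
P4ha1 (chr10:59323268-59323297, plus strand): tgtgacagagcgCACGTagcgagggctgcg
P4ha2 (chr11:54100834-54100863, plus strand): tgtgcatcgcatACGTGcagcgcgtggcgg
Ddit4 (chr10:59951940-59951969, minus strand): agaacgttgcgaACGTGcgcccggtgccta

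In these windows the cores began 108 bases before the start site in Bnip3, 241 and 6 bases before it in Ankrd37, 16 bases before it in P4ha1, 78 bases before it in P4ha2 and 187 bases before it in Ddit4. P4ha2 had a further core 10 bases after its start. The paralogues P4ha1 and P4ha2 therefore both held the core, at different positions.

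**Figure D2:**
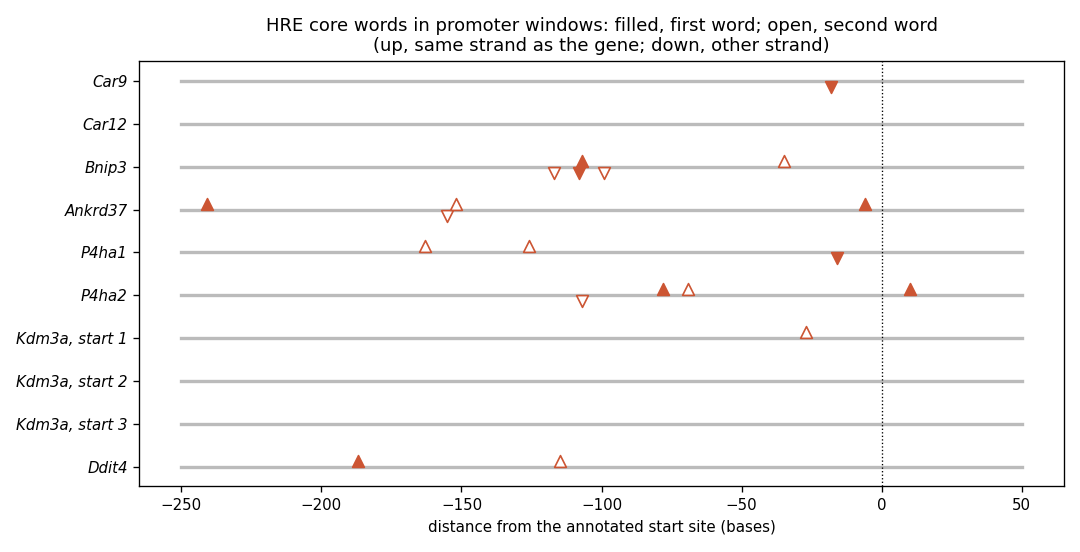
Position of HRE core words in the RefSeq promoter windows of 8 members (10 windows), in bases from the annotated start. Filled triangles mark ACGTG and open triangles GCGTG, pointing up on the strand of the gene and down on the other strand. Car12 and 2 of the 3 Kdm3a windows hold neither.

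The 2 carbonic anhydrases set at the cell surface, which hydrate CO2 and so help to set the pH around the cell, had 95% intervals of the log2 fold change that did not overlap. Car9 (chromosome 4), a widely used marker of HIF activity, had 30, 40 and 72 reads in Ctrl and 0, 0 and 3 reads in Nfkbiz KO. Every knockout sample was thus at or below the detection floor of 3 reads, and every control sample was well above it. In TPM it was 1.14, 1.53 and 2.27 in Ctrl and 0, 0 and 0.0687 in Nfkbiz KO, so that the gene was low in the control cells as well. Pooled over samples and corrected for depth, 142 reads stood against 3, a 48.4-fold lower level with an exact 95% interval of 16.2 to 237 that covers counting error only. The fitted log2 fold change of -5.41 (adjusted p = 3.6e-05) depends on the prior count. Without Nfkbiz KO replicate 3, which holds all 3 reads, it was -8.51, and without each other sample it lay between -5.60 and -4.88. With limma it was -3.82 on log2(TPM + 0.1) and -1.35 on log2(TPM + 1), a scale that understates the change of low genes. Of the Car9 reads, 91.0% were uniquely mapped.

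Car12 (chromosome 9) had 84, 102 and 93 reads in Ctrl and 96, 85 and 119 reads in Nfkbiz KO. The groups overlapped, with means of 1.03 TPM ± 0.139 and 1.13 TPM ± 0.237 (SD, n = 3 each). The log2 fold change of Car12 was 0.08 with a 95% interval of -0.31 to 0.47 (adjusted p = 0.78), so a fall as large as that of Bnip3 lies outside the interval, while small changes in either direction lie inside. Car12 overlaps Aph1b on the opposite strand in the GENCODE annotation, and reads were counted without regard to strand. Aph1b was higher in Nfkbiz KO (log2 fold change 0.42, adjusted p = 0.016), so reads of the 2 genes cannot be told apart where they overlap. Car9 overlaps the long noncoding Gm12454 in the same way, for which no value was tested.

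The 250 bases before the start sites of this pair are printed as examples of a sequence with the core and a sequence without it. They lie at chr4:43506776-43507025 and chr9:66713436-66713685, both on the plus strand of GRCm38.p6. The capitals mark the core, which in Car9 is on the other strand and begins 18 bases before the start. Whether the core bears on the change of either gene was not tested, and Kdm3a, called lower, held no ACGTG in its windows.
Car9: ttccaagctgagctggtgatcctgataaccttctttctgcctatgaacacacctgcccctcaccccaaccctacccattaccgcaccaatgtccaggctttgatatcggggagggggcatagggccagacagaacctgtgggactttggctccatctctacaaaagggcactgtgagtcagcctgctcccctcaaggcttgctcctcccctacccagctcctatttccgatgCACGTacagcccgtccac
Car12: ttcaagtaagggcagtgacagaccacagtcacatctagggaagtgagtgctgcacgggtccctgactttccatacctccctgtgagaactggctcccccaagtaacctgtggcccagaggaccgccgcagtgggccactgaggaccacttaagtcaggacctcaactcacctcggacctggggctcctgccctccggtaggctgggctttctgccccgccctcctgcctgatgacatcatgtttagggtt

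Of 14 other carbonic anhydrases, 6 passed the filter, 0 were lower and 1 was higher, against 18.4% and 18.2% of all genes tested. Car13, a cytosolic enzyme, was the most abundant, at 80.5 TPM ± 7.50 in the control group and 89.2 TPM ± 5.15 after knockout (SD, n = 3 each), with a log2 fold change of 0.06 (adjusted p = 0.53). The member called higher was Car11, a relative without catalytic activity, from 5, 11 and 13 reads to 22, 13 and 36 reads (log2 fold change 1.25, SE 0.44, adjusted p = 0.041), and it missed the threshold in DESeq2 and when any sample except Nfkbiz KO replicate 2 was left out. Car5b (-0.27), Car14 (-0.26), Car15 (-0.50) and Car7 (0.02) were not called. Car14 had 51 to 114 reads but at most 0.031 TPM, which counts exon reads only, so its value says little about its mRNA. Of the Car15 reads, 47.1% were uniquely mapped. Car2, Car6 and Car8 were among those below the filter, at no more than 0.43 TPM on average.

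Among 7 tested genes of acid extrusion and bicarbonate transport, 4 were lower and 0 higher, with a median log2 fold change of -0.19. Over all genes tested, 18.4% were lower and 18.2% higher. Slc16a3, the lactate exporter MCT4 and itself a HIF target, fell from 21.4, 24.9 and 24.03 TPM to 5.15, 4.92 and 5.54 TPM, a log2 fold change of -2.25 (SE 0.082, adjusted p = 1.8e-09). Its chaperone Bsg, among the most abundant transcripts named here at 1129 TPM in Ctrl, fell by 0.31 on the log2 scale (adjusted p = 0.0025). With limma on TPM, 2 of the 7 were lower.

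Bnip3 and Bnip3l (NIX) encode related proteins of the outer mitochondrial membrane that recruit the autophagy machinery to mitochondria. Bnip3 (chromosome 7) was at 156, 206 and 201 TPM in Ctrl and 97.5, 93.5 and 114 TPM in Nfkbiz KO. The groups did not overlap, although Ctrl replicate 1 stood below the other control samples. Its log2 fold change was -1.003 (SE 0.10, adjusted p = 8.3e-06), and 90.8% of its reads were uniquely mapped. It stayed called without each sample in turn, at -1.12 without Ctrl replicate 1 and -0.92 without Ctrl replicate 3, the latter under a fold change of 2. Bnip3 lies opposite the noncoding Gm45507 and the pseudogene Gm18258, which were not tested.

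Bnip3l (chromosome 14) was at 96.5, 116 and 106 TPM in Ctrl and 71.2, 71.4 and 70.3 TPM in Nfkbiz KO. The knockout samples lay close together and below all control samples, with a log2 fold change of -0.68 (SE 0.062, adjusted p = 3.7e-06). The ratio of Bnip3 to Bnip3l in TPM was 1.62, 1.78 and 1.89 in Ctrl and 1.37, 1.31 and 1.62 in Nfkbiz KO, with the mean ratio down by 18.7%. The lowest control ratio and the highest knockout ratio were nearly equal (exact permutation test p = 0.1).

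Of 14 other tested genes of the BNIP3 family list, which holds mitophagy receptors and their partners, 4 were lower and 2 higher, with a median of -0.06. That is 28.6% lower, beside 18.4% lower and 18.2% higher over all genes tested. Sqstm1, which encodes the autophagy receptor p62, rose from 424 to 690 TPM (log2 fold change 0.61, adjusted p = 3.8e-06). Gabarapl1 rose by 0.42 on the log2 scale, whereas its relatives Gabarap (-0.43) and Map1lc3a (-0.45) fell, the call of Map1lc3a being lost with limma on TPM and without Nfkbiz KO replicate 3 (-0.35 in both). These 4 encode p62 and members of the ATG8 family that it binds. The other lower calls were Fkbp8, a mitophagy receptor (-0.21, adjusted p = 0.035), and Pink1, the kinase that marks damaged mitochondria (-0.27, adjusted p = 0.033), whereas the receptors Fundc1 (-0.05) and Phb2 (-0.07) were not called. With limma on TPM or without Nfkbiz KO replicate 3, 1 gene of the list was lower, and without Ctrl replicate 1 or Nfkbiz KO replicate 2, 2 were.

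P4ha1 and P4ha2 encode alternative alpha subunits of the collagen prolyl 4-hydroxylase, which adds the hydroxyl groups that stabilise the collagen helix. P4ha1 (chromosome 10), the most abundant of the 10 genes, was at 219, 243 and 229 TPM in Ctrl and 201, 190 and 192 TPM in Nfkbiz KO. The groups did not overlap, but the fall was small, at -0.34 on the log2 scale (SE 0.054, adjusted p = 0.00038). P4ha2 (chromosome 11) was at 52.9, 58.7 and 58.1 TPM in Ctrl and 23.2, 22.1 and 20.6 TPM in Nfkbiz KO, which is a log2 fold change of -1.47 (SE 0.065, adjusted p = 6.3e-09), 2.76-fold lower.

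The 95% intervals of the paralogues, -0.46 to -0.22 for P4ha1 and -1.61 to -1.32 for P4ha2, did not overlap. Within each sample, P4ha2 was 0.242, 0.242 and 0.254 of the P4ha1 level in Ctrl and 0.116, 0.117 and 0.107 of it in Nfkbiz KO. The ratio was 0.246 ± 0.00687 and 0.113 ± 0.00523 (SD, n = 3 each), a fall of 53.9% with no overlap (exact permutation test p = 0.1). The third subunit P4ha3, with means of 4.39 and 4.23 TPM in the control and knockout samples, had a log2 fold change of -0.16 (adjusted p = 0.41).

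**Figure D3:**
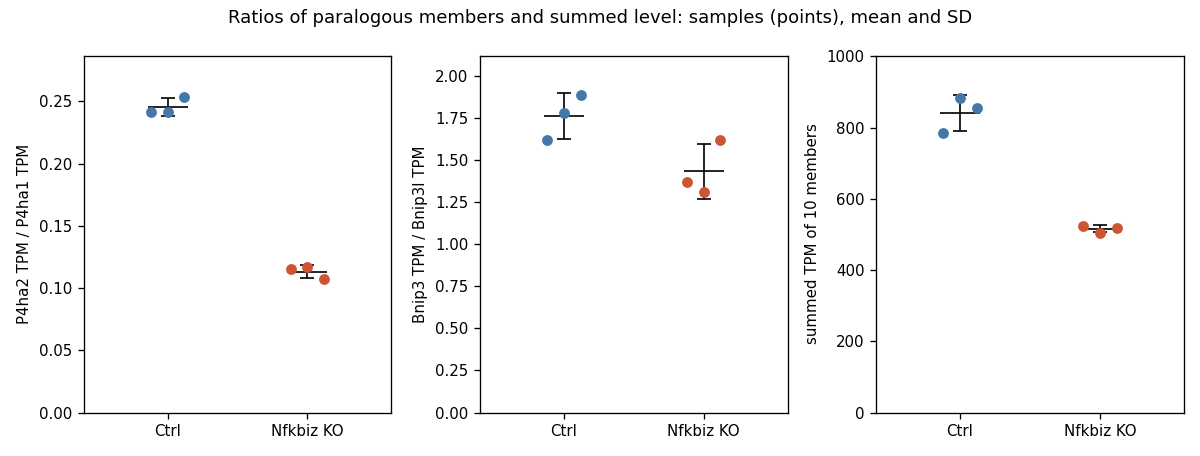
Ratio of P4ha2 to P4ha1 TPM, ratio of Bnip3 to Bnip3l TPM and summed TPM of the 10 genes in each of 3 Ctrl (blue) and 3 Nfkbiz KO (red) samples, with mean and SD; vertical axes start at 0. The P4ha2 to P4ha1 ratio falls from 0.246 to 0.113, with much less spread within groups than between them.

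In the surrounding list of 17 tested genes of collagen hydroxylation and crosslinking, 6 were lower and 2 higher, with a median of -0.16. The shares over all genes tested were 18.4% lower and 18.2% higher. Lox, which crosslinks collagen, fell from 28.4 to 5.70 TPM (log2 fold change -2.40, SE 0.072, adjusted p = 3.2e-10). Loxl2 fell by 1.18 on the log2 scale, with 79.4% of its reads uniquely mapped, and Plod2, a lysyl hydroxylase, was at -0.80. In the opposite direction, Loxl3 rose from 60.4 to 140.4 TPM (1.11 on the log2 scale) and Plod1 by 0.21, a call lost without Nfkbiz KO replicate 1 or 2 (0.20 each). Lox, Loxl2, Plod1 and Plod2 also count as HIF targets in another list. The fibroblast marker Col1a1, whose product is the substrate of these enzymes, was lower too, at -0.58 on the log2 scale.

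Kdm3a (chromosome 6) encodes a JmjC demethylase of histone H3 lysine 9, an enzyme that itself needs oxygen. It had the smallest of the called changes. Its levels were 21.4, 25.2 and 20.5 TPM in Ctrl and 21.3, 19.2 and 21.3 TPM in Nfkbiz KO, which overlap. In gene reads the log2 fold change was -0.24 (SE 0.065, adjusted p = 0.011), and in mean TPM it was -0.12. The call rests on the unit and on 1 library. It was lost on log2(TPM + 1) with limma (-0.11, adjusted p = 0.40) and without Nfkbiz KO replicate 2 (-0.20, adjusted p = 0.067). TPM were not rescaled between samples, and on log2(TPM + 1) the median of all genes tested was 0.06, against -0.02 in reads. Over the other JmjC demethylases, 2 of 20 were lower (Kdm5b, -0.63, and Kdm4b, -0.53) and 4 higher, led by Kdm7a (0.59) and Phf2 (0.27), with a median of 0.07. The shares over all genes tested were 18.4% lower and 18.2% higher. The nearest relatives of Kdm3a did not fall, with Kdm3b at 0.14 (adjusted p = 0.26) and Jmjd1c at 0.26 (adjusted p = 0.034). The call of Jmjd1c was lost with limma on TPM (0.39) and without each Nfkbiz KO replicate (0.24 to 0.29), and that of Phf2 without Nfkbiz KO replicate 2 (0.23).

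Ddit4 (REDD1, chromosome 10) restrains the growth kinase complex mTORC1 through the TSC proteins. It was at 211, 200 and 206 TPM in Ctrl and 92.9, 91.2 and 79.9 TPM in Nfkbiz KO, widely separated. The log2 fold change was -1.32 (SE 0.070, adjusted p = 3e-08), 2.50-fold lower. Its relative Ddit4l, at 4.015 TPM in Ctrl, had a log2 fold change of 0.08 (adjusted p = 0.71). In the rest of the mTORC1 axis, 3 of 18 genes were lower (16.7%) and 3 higher, with a median of 0.02. These counts are near the shares over all genes tested, 18.4% lower and 18.2% higher. The largest of these changes were Txnip (-0.25) and Rptor (0.22), both lost with limma on TPM. Leaving out Nfkbiz KO replicate 1 or 2 also ended both calls (Txnip -0.24 and -0.23, Rptor 0.21 and 0.23), and leaving out replicate 3 ended that of Rptor (0.22).

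Ddit4 and Ndrg1 are also induced by cell stress and by glucocorticoids. Genes of those responses were therefore set beside them, in a list that also holds Myc and Egr1. Of 16 tested, 10 were higher and 1 lower, with a median of 0.23, against 18.2% higher and 18.4% lower over all genes tested. Chac1, a target of the stress factor ATF4, rose by 0.51 on the log2 scale (adjusted p = 1.5e-05), and Nr3c1, the glucocorticoid receptor, by 0.40. Atf4 itself (0.06) and Hspa5 (0.11) were not called. Of the glucocorticoid response genes, Fkbp5 (0.25) and Klf9 (0.17) were higher, whereas Tsc22d3 (0.08), Per1 (0.08) and Sgk1 (0.13) were not called. Myc (0.25) and Egr1 (0.40), which stand in the same list, count among the 10 higher genes. The 1 that fell was Cebpb, from 326 to 136 TPM (log2 fold change -1.37, adjusted p = 7.3e-06).

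Ndrg1 (chromosome 15), a stress-responsive protein linked to differentiation and metastasis, was at 15.3, 20.1 and 18.2 TPM in Ctrl and 12.8, 11.6 and 12.9 TPM in Nfkbiz KO. All knockout samples were lower than all control samples, with a log2 fold change of -0.62 (SE 0.084, adjusted p = 0.0001). Among its 3 paralogues, Ndrg2 fell from 4.92, 4.22 and 4.68 TPM to 1.05, 1.35 and 1.52 TPM (log2 fold change -1.89, SE 0.19, adjusted p = 6.6e-06). Ndrg3 (-0.01 in reads and 0.11 in log2(TPM + 1)) and Ndrg4 (-0.15) were not called. Ndrg1 lies opposite the noncoding Gm17035 and Gm2895, which were not tested.

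Ankrd37 (chromosome 8), a small ankyrin repeat protein of largely unknown role, was at 9.85, 11.9 and 11.9 TPM in Ctrl and 4.12, 5.44 and 5.81 TPM in Nfkbiz KO. The lowest control sample was above the highest knockout sample. The log2 fold change was -1.24 (SE 0.15, adjusted p = 4e-05). It overlaps Ufsp2 and Lrp2bp on the opposite strand. Ufsp2 had means of 25.5 and 26.5 TPM in the control and knockout samples and did not pass the test (log2 fold change -0.03, adjusted p = 0.77).

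**Figure D4:**
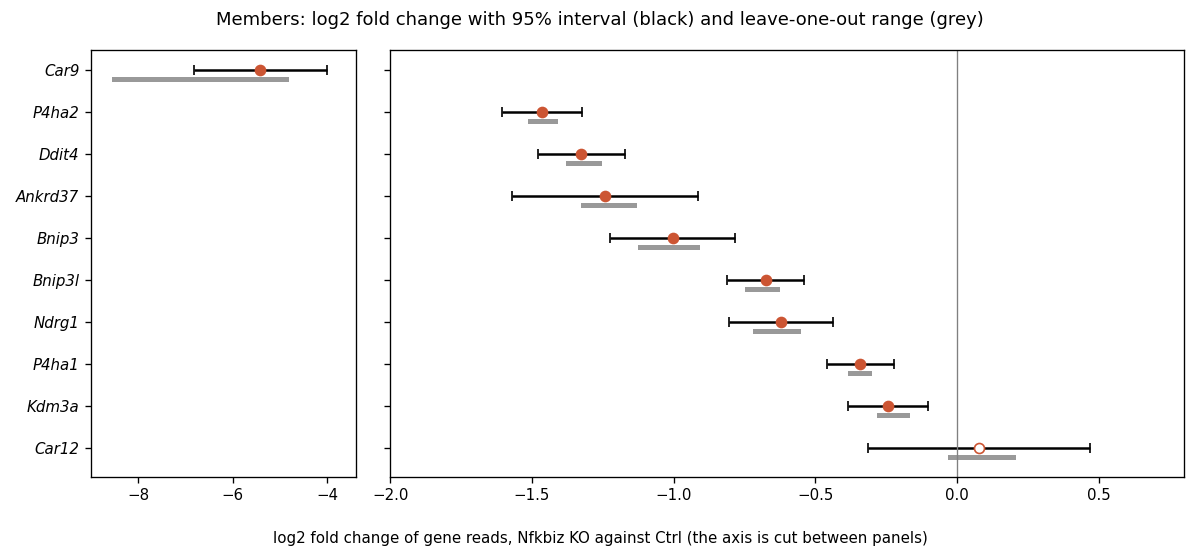
Log2 fold change of gene reads in Nfkbiz KO against Ctrl for the 10 genes (filled, adjusted p of 0.05 or less), with the 95% interval in black and the range over leaving out each of 6 samples in grey. The axis is cut, and the left panel has a coarser scale for Car9, whose range reaches -8.51; Car12 alone spans 0.

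The regulators of the pathway were measured in the same samples. Hif1a, which encodes HIF-1α, was at 186, 225 and 188 TPM in Ctrl and 102, 97.4 and 99.6 TPM in Nfkbiz KO, for a log2 fold change of -1.10 (SE 0.060, adjusted p = 4.5e-08). Epas1, which encodes HIF-2α, was lower in level and fell as well, from 10.7 to 4.71 TPM (-1.28, adjusted p = 5.6e-07). Their partner Arnt was at -0.12 (adjusted p = 0.23) in reads and 0.03 on log2(TPM + 1), and Hif3a had 0 TPM in every sample.

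Of the 9 tested subunits and hydroxylases, 6 were lower and 0 higher, with a median of -0.50. Beside these counts, 18.4% of all genes tested were lower and 18.2% higher. Egln3, a hydroxylase gene that is itself a HIF target, fell from 251 to 100.1 TPM (-1.42, adjusted p = 4.9e-09). Egln1 (-0.56) and Vhl (-0.50) fell too, whereas Egln2 (-0.15) and Hif1an (0.02) were not called. Only mRNA was measured, and the amount or activity of HIF protein was not analysed here.

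The HIF targets outside the 10 genes were counted by list, beside 18.4% lower and 18.2% higher over all genes tested. Of 21 tested genes of glucose use, 16 were lower and 2 higher, with a median of -0.51. Besides Slc16a3, Pdk1, a kinase that inactivates mitochondrial pyruvate dehydrogenase, fell by 1.18 on the log2 scale, while Eno2 (0.37) and Gbe1 (0.21) rose. Eno2 lost its call without Nfkbiz KO replicate 3 (0.32), and Gbe1 without that sample (0.21), Nfkbiz KO replicate 2 (0.17) or Ctrl replicate 1 (0.18). Of 30 other hypoxia targets, 20 were lower and 3 higher, with a median of -0.46, led by Lox and Tmem45a (-2.23), and with Vldlr (0.41) and Tfrc (0.22), the transferrin receptor, on the higher side. Tfrc lost its call without Nfkbiz KO replicate 3 (0.18).

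Of 10 tested genes of blood vessels and secreted peptides, 4 were lower and 0 higher, with a median of -0.12. The shares over all genes tested were again 18.4% lower and 18.2% higher. Angptl4 (-2.36, adjusted p = 9e-05) and the peptide gene Adm (-1.59, adjusted p = 3.5e-07) fell furthest. Angptl4 was low, with 63, 43 and 71 reads in Ctrl and 11, 10 and 14 reads in Nfkbiz KO. Some genes stand in more than 1 list, such as Slc16a3 and Lox, so the counts are not independent. Aldoa and Ddit3 were not analysed here.

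**Figure D5:**
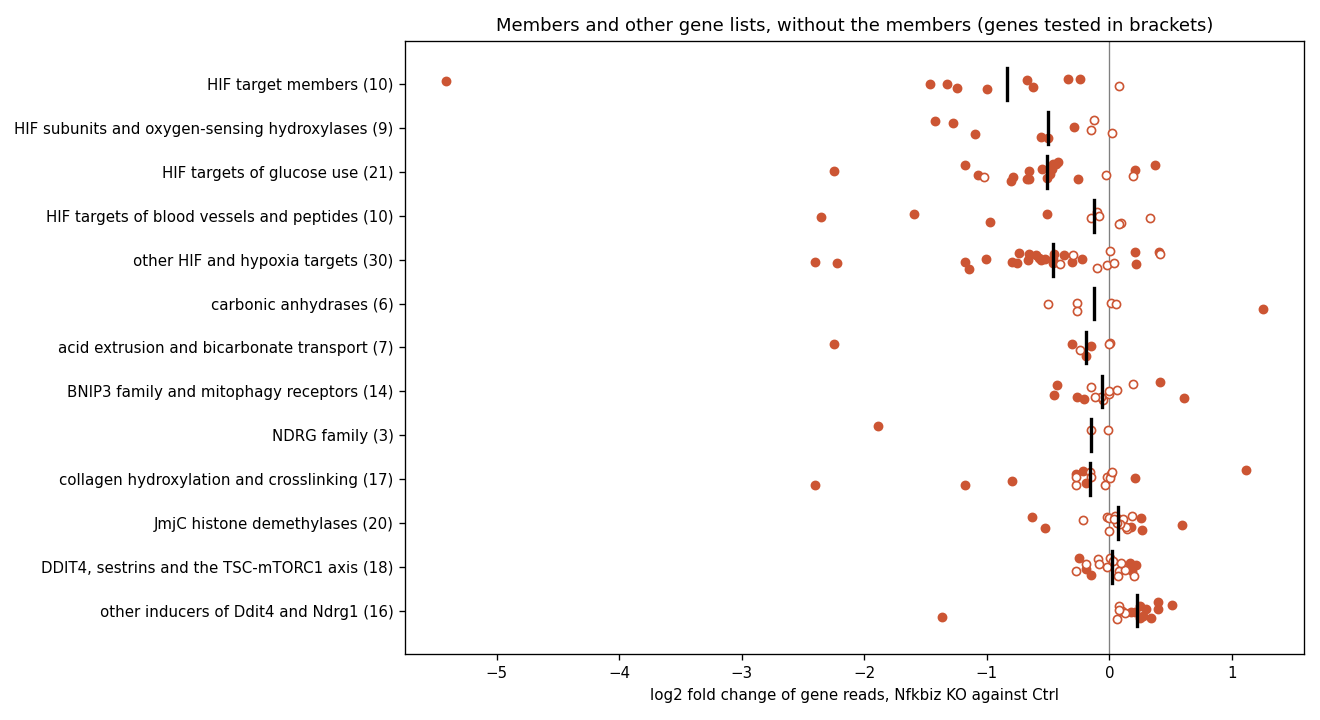
Log2 fold change of gene reads in Nfkbiz KO against Ctrl for the 10 genes and for the other lists without them; each point is a gene (filled, adjusted p of 0.05 or less; height within a row is random), black bars are list medians and brackets give genes tested. Medians run from -0.84 for the 10 genes to 0.23 for the stress and glucocorticoid list.

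Among genes with a mean of at least 10 CPM, those most like Car9 over the 6 samples in log2 CPM were Ctnnbip1 (r = 0.999), Gtf2a2 (0.997), 4833420G17Rik (0.996), Mmp19 (0.995) and Vhl (0.995). For these Pearson coefficients the 6 points fall in the 2 groups and share their libraries. Car9 had 0, 0 and 3 reads in Nfkbiz KO, so its values there rest largely on the prior count, and the order of the coefficients carries little meaning. Among the genes listed, Mmp19, a matrix protease, had a log2 fold change of -1.17 and Ctnnbip1 one of -0.36, so a similar pattern went with unequal sizes of change.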

How the data were processed

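Total RNA of 6 D4M-3A samples was sequenced as paired-end reads, and the authors processed it with CLC Genomics Workbench v24.0 without regard to strand. The methods name GRCm39 and the processing notes of the labels GRCm38, and the tables hold no coordinates. The deposited tables give total and unique gene reads as raw counts. The deposited TPM values, other than the counts, use exon reads only. Decimal commas were converted.

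Total gene reads were tested with the quasi-likelihood test of edgeR 4.0.16, with TMM factors and Benjamini-Hochberg over 14419 genes. The filter was filterByExpr with a minimum count of 10 and a total of 15. The procedure was tried on counts simulated from its own fitted model with independent samples, which cannot probe dependence between replicates. CPM are reads scaled to a common depth. The fold change above 2 and difference above 4 are thresholds of the methods, whose unit is not given there and was taken as TPM. Alternatives used limma 3.58.1, DESeq2 1.42.0, other filters and left-out samples. The members and lists were chosen with earlier results of these data known. All members were named. From each list, up to 2 genes with the largest called change in each direction and a mean of at least 1 TPM were named, with the paralogues of members, and any other gene was chosen after its values were seen. The methods describe biological replicates, the labels do not say whether cultures were separate, and p-values measure the spread between these samples. That spread was unequal. Chi-square values between pairs of samples, scaled by degrees of freedom, were 25.8 to 65.9 in Ctrl and 3.41 to 5.89 in Nfkbiz KO. The knockout samples were thus more alike than the control samples, and whether they came from separate cultures was not tested. All 6 samples were tested together, so the p-values rest on both spreads. Overlapping genes came from GENCODE vM39, and promoters from RefSeq (GRCm38.p6).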

Additional observations from a re-analysis of the deposited data

How the results depend on the processing

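Of the 10 genes, 9 were lower under most alternatives and 8 with at least 1 CPM in 3 samples (where Car9 could not be tested), with limma and without Nfkbiz KO replicate 2. The number of genes called lower fell from 2647 to 1327 with limma on log2(TPM + 1) and to 1279 on log2(TPM + 0.1), on which the median of all genes was 0.06 and 0.08. With the stricter filter the median of the 9 genes left without Car9 was -0.68, as it was for those 9 in the reported test. The median of the 10 genes moved to -0.72 and -0.73 with limma. Kdm3a lost its call with limma (-0.11 and -0.11) and ranged from -0.28 to -0.18 when each sample was left out. Car12 ranged from -0.02, without Nfkbiz KO replicate 1, to 0.20, without a call. The cause was not tested.

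Among genes without a call, the sign turned with limma for Arnt (0.0274 and 0.0286), Ndrg3 (0.11 and 0.12), Car7 (-0.0489 and -0.22) and Car14 (0.00065 and 0.0051). The TPM of Car14 was at most 0.031 in any sample, so its sign there carries no meaning. Leaving out single samples gave -0.0802 to 0.0290 for Ndrg3 and -0.58 to 0.28 for Car7. Fitted with a replicate block, 9 of the 10 genes were lower and 2527 genes in all, and Car7 was at -0.0393. The block changed no call among the 10 genes. Deviations of same-numbered samples correlated at 0.037, -0.023 and 0.026, so the numbers were not read as a pairing. With GCGTG added, 7 in place of 6 genes held the motif. Read depth limits, among others, Car9, Car12, Car11, Car7, Car14, Car15 and Angptl4, whose samples had at most 119 reads.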
